A study of Mus musculus with 2 samples.

Results

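Gm3893 and 4933409K07Rik are mouse genes that the RefSeq table of assembly GRCm38.p6 lists on chromosome 4 as transcribed pseudogenes. The probe sets described here are all those whose symbol annotation holds either name, alone or with other symbols, and they number 24 of the 41345 probe sets on the array. The annotation gave 3 of them Gm3893 alone, 8 of them 4933409K07Rik alone, 11 both names, and 2 further symbols as well. They were singled out because their values differed between the arrays, so the difference between irradiated and control is given as a description and supports nothing by itself.

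Liver RNA was hybridised to 2 Affymetrix whole-transcript arrays, 1 from a control and 1 from an irradiated sample. Both came from male C57BL/6 mice, an inbred strain, aged 9 weeks. The irradiated mice had received 1 whole-body gamma-ray dose of 6 Gy at 4 weeks of age, at 0.81 Gy per minute and under anaesthesia, and liver was taken 5 weeks later. The control is labelled untreated, no source used here says how it was handled during the irradiation, and the labels do not say whether a sample was 1 mouse or a pool. There was no replicate, so no difference below has a replicate check and none was tested.

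A transcribed pseudogene is a copy of a gene that is thought to make no full protein but is still copied into RNA. In the RefSeq gene order Gm3893 stands among duplicated copies of chemokine genes, with Gm13304 and Gm13306 close by. The chemokines encoded in this part of the mouse genome include Ccl19 and Ccl21, which guide lymphocytes and dendritic cells into lymphoid tissue through the receptor Ccr7, and Ccl27, which is best known from skin. Copies in such a region can be so alike that a short array probe could bind several of them. Whether the probes of these probe sets do so was not examined, since no probe sequences were used here.

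How alike the copies are can be read from the genes that share probe sets with Gm3893 and 4933409K07Rik. RefSeq promoter windows were found for 5 of the 9 genes annotated on the 24 probe sets, namely Ccl27b, Gm13306, Gm20878, Gm21586 and Gm21953. The 250 bases before the first listed start of Ccl27b (GRCm38.p6, chr4:42650313-42650562, plus strand) were letter for letter those of Gm13306 (chr4:42153154-42153403, plus strand). Those before Gm20878 (chr4:41941384-41941633, plus strand) were identical to those of Gm21953 and Gm21586. One sequence of each kind is shown, with capitals marking the longest run of bases that both kinds share, 196 bases. That run closes the first window and opens the second, so its length is limited by where the windows begin and end. The lower-case bases have no counterpart in the other window and are not shown to differ.
Ccl27b and Gm13306: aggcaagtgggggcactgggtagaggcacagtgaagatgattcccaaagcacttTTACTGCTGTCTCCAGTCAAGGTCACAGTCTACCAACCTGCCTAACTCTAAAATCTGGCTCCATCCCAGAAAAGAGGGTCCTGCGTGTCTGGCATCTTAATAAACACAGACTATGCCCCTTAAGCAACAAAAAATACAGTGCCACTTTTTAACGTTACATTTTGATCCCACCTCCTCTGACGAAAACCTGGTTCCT
Gm20878, Gm21953 and Gm21586: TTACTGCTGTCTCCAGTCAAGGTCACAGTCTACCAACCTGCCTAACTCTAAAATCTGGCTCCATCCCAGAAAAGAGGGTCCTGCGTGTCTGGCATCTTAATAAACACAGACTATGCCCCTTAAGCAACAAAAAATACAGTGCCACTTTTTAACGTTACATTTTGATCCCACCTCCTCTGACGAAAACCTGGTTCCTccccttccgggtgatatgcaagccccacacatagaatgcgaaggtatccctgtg
These windows show only that whole stretches of this region recur unchanged, and they say nothing about what the arrays measured.

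Values are log2 RMA values, in which a difference of 1 is 2-fold, and differences are irradiated minus control. The floor used below is the median of all deposited values on both arrays, 6.06. It is a rank, not a measured background. A probe set was kept when at least 1 of its values was at or above the floor, which held for 19 of the 24. A probe set kept through its control value alone necessarily has a difference below 0. Of the 24, 11 shared both values exactly with another of them, in 5 sets of identical pairs, so that the 24 probe sets held 18 distinct pairs. No other probe set on the array shared a pair with them. Further values were tied to each other: probe sets 17424360 and 17434236 had the same difference (equal within 2e-06) with levels 0.02 apart, and 17413000 and 17434095 had the same mean over the arrays, 6.83, as had 17424407 and 17434236, 6.85. Identical and tied values are not separate observations.

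Of the 19 probe sets above the floor, 11 were at least 2-fold lower on the irradiated array and 0 were 2-fold higher, and the 11 held 10 distinct pairs. In 7 of the 11 the irradiated value was below the floor, so they were kept through the control value alone. Over all 21636 probe sets above the floor 0.624% were at least 2-fold lower and 0.587% at least 2-fold higher. Counted over distinct pairs, 10 of 15 were 2-fold lower, against 0.465% of all. Several of the 10 pairs are tied to each other as given above, so they are fewer than 10 separate observations. Since these probe sets were chosen for this difference, nothing is read from the gap between those shares. The median over the 15 distinct pairs was -1.17, and over all probe sets above the floor it was 0.00, with the central 95% between -0.51 and 0.58.

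**Figure D1:**
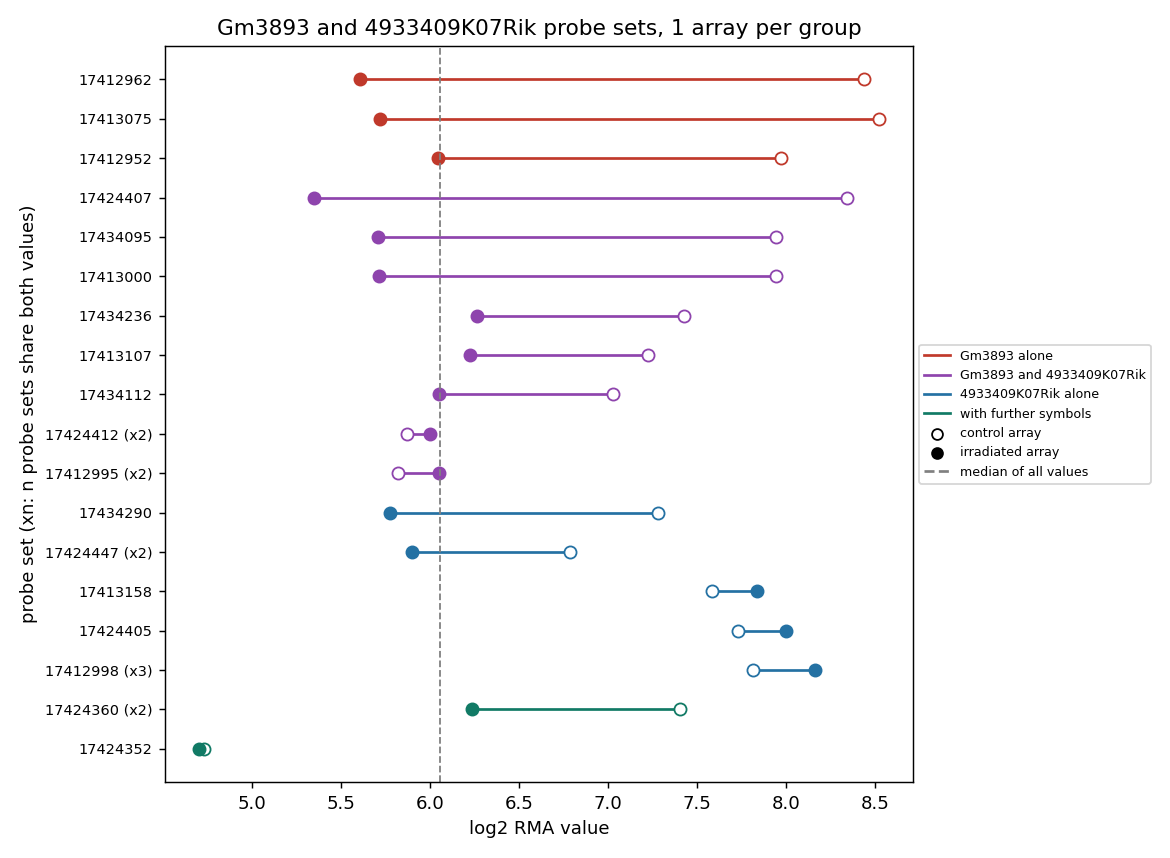
Log2 RMA values of the 18 distinct value pairs held by the 24 probe sets, with open circles for the control array, filled circles for the irradiated array, colours for the annotated symbols and a dashed line at the median of all values. The 3 probe sets annotated with Gm3893 alone lie between 7.97 and 8.52 in the control and between 5.61 and 6.05 in the irradiated sample.

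The 3 probe sets that carry Gm3893 and no other symbol were all lower. Probe set 17413075 read 8.52 in the control and 5.72 in the irradiated sample, a difference of -2.81. Probe set 17412962 read 8.44 and 5.61, a difference of -2.83. Probe set 17412952 read 7.97 and 6.05, a difference of -1.92. On the control array all 3 were well above the floor, and on the irradiated array all 3 were below it. As measured, the control was 6.99-fold, 7.11-fold and 3.80-fold above the irradiated array, and with the irradiated value set to the floor 5.52-fold, 5.21-fold and 3.77-fold.

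Of the 11 probe sets annotated with both names, 7 were above the floor and all 7 were below 0, 6 of them at least 2-fold. In 3 of the 6, and in 17434112, which fell short of 2-fold, the irradiated value was below the floor. These were kept through the control value alone, so their differences had to be below 0. Of all probe sets with several symbols above the floor, 28 (2.83%) were 2-fold lower counted singly and 12 (1.29%) over distinct pairs. Both counts include the 6 given here. Probe set 17424407 read 8.35 and 5.35, a difference of -3.00 or 7.99-fold. As measured this was the largest of the 24, but against the floor it was 4.88-fold, less than for 17413075 and 17412962. Probe set 17413000 read 7.94 and 5.71 (-2.23), and 17434095, tied to it through the same mean, read 7.95 and 5.71 (-2.24). These 3 had control values close to those of the probe sets with Gm3893 alone, and like them read below the floor on the irradiated array.

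The other probe sets with both names had lower control values and smaller differences. Probe set 17434236 read 7.43 and 6.26, and 17434197 read 7.41 and 6.24, each a difference of -1.17. Probe set 17413107 read 7.23 and 6.22, a difference of -1.002 that lay just past 2-fold. Just short of 2-fold was 17434112, at 7.03 and 6.05 (-0.98), its irradiated value just below the floor. Unlike the strongest ones, 17434236, 17434197 and 17413107 stayed above the floor on both arrays. Setting low values to it therefore left their folds of 2.24, 2.24 and 2.0 unchanged. Their irradiated values were close to the floor, however, and their control values were under the 75th percentile of all values, 7.64. With 32 added on the linear scale, 17434236 was at -0.91 and 17413107 at -0.77, short of 2-fold.

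The remaining 4 with both names formed 2 identical pairs below the floor on both arrays and enter no count. Probe sets 17412995 and 17413100 both read 5.82 and 6.05, and 17424412 and 17434248 both read 5.87 and 6.00. The differences of 0.23 and 0.13 were positive, and the mean of both arrays was the same in all 4, 5.94.

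Both probe sets with further symbols also carry Gm3893. Probe set 17424360, annotated with 4933409K07Rik, Ccl27b, Gm13306, Gm3893 and LOC100861978, shared the values of 17434197 exactly, 7.41 and 6.24. Probe set 17424352, annotated with Gm3893, Gm21586, LOC100862220, Gm20878 and Gm21953, was at 4.73 and 4.71, far below the floor on both arrays. So of the 16 probe sets that hold the name Gm3893, 11 were above the floor, and all 11 were below 0. Of these, 10 were at least 2-fold lower, against 0.624% of all probe sets above the floor. Differences of the 11 ran from -3.00 to -0.98. In 6 of the 10 the irradiated value was below the floor. The irradiated value of 17434112, which fell short of 2-fold, was below the floor too. Those 6 and 17434112 were kept through the control value alone, so their differences had to be below 0. The 5 left out ranged from -0.02 to 0.23.

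The 8 probe sets annotated with 4933409K07Rik alone went both ways. All 8 were above the floor, and they held 5 distinct pairs. Probe set 17434290 was the only one at least 2-fold lower, at 7.28 and 5.77 (-1.51, 2.84-fold, and 2.33-fold against the floor). Probe sets 17424447 and 17434275 shared the values 6.79 and 5.90 (-0.89). These 3 all read below the floor on the irradiated array.

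The other 5 with 4933409K07Rik alone were slightly higher on the irradiated array. Probe sets 17412998, 17424410 and 17434127 shared the values 7.81 and 8.17, a difference of 0.35 or 1.28-fold. Probe set 17424405 read 7.73 and 8.0 (0.27), and 17413158 read 7.59 and 7.84 (0.25). All 5 differences lay inside the central 95% of all probe sets above the floor. Their control values, from 7.59 to 7.81, were within the range of those that were at least 2-fold lower, from 7.23 to 8.52. On the irradiated array they did not overlap: the 5 read 7.84 or more and the 11 that were 2-fold lower read 6.26 or less. This split follows the difference itself and is a description.

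**Figure D2:**
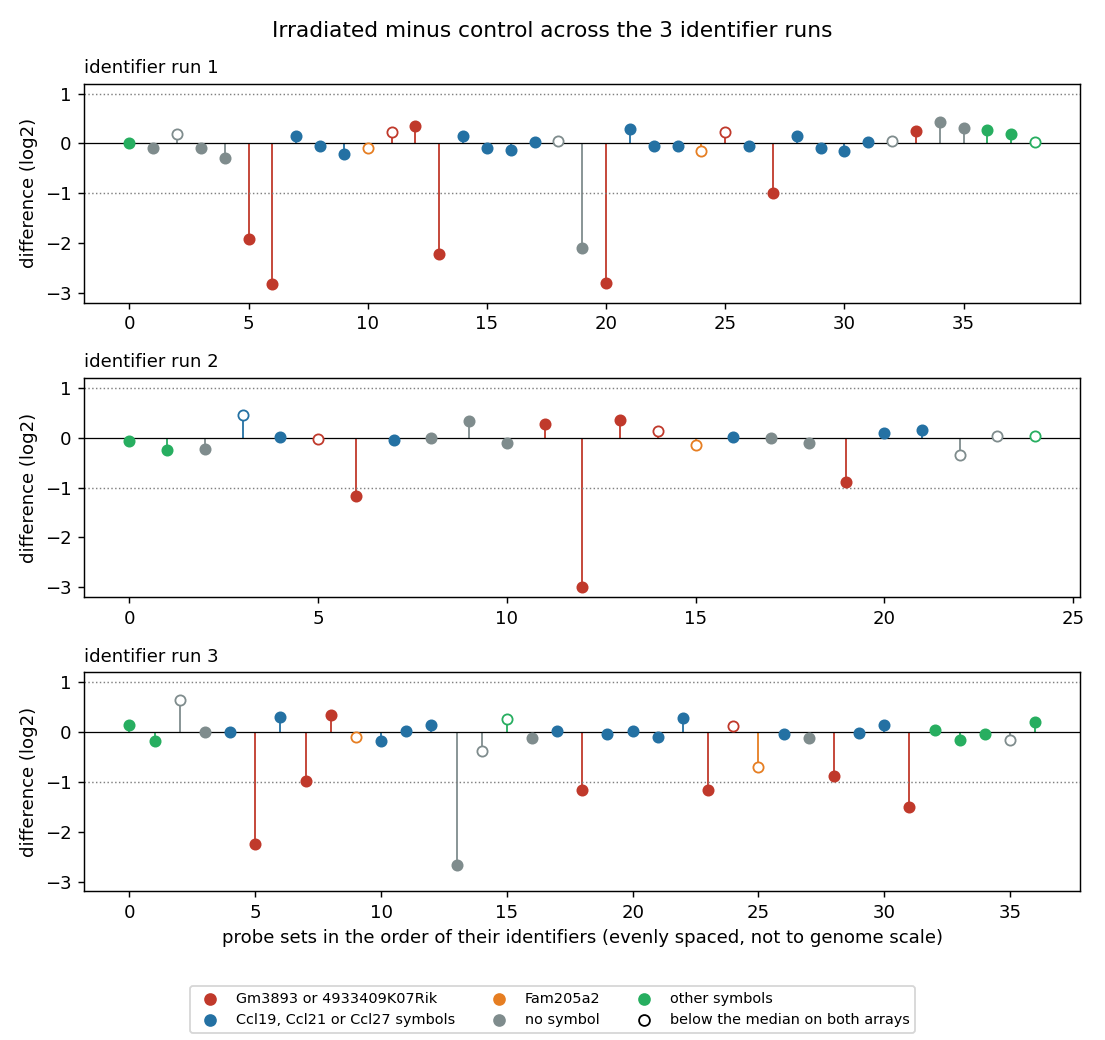
Differences (irradiated minus control, log2) of the probe sets in each of the 3 runs of identifiers, in order and evenly spaced, coloured by annotation, with 5 neighbours beyond either end, open circles for probe sets below the floor on both arrays and dotted lines at 2-fold. Lower values from -3.00 to -0.89 are scattered among chemokine probe sets that lie near 0.

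The 24 probe sets fell into 3 runs of identifiers. The first run, from 17412952 to 17413158, held 9 of them, the second, from 17424352 to 17424447, held 7, and the third, from 17434095 to 17434290, held 8. In the first run 5 of the 7 above the floor were at least 2-fold lower, in the second 2 of 5 and in the third 4 of 7. Over all probe sets above the floor the share was 0.624%. Of those 2-fold lower, 4, 1 and 2 were below the floor on the irradiated array, so their sign was fixed by the filter. Since the probe sets were chosen for this difference, nothing is read from these counts. Each run also held at least 1 probe set with 4933409K07Rik alone at 0.35, through the identical values of 17412998, 17424410 and 17434127. Identifier order was used as an order of names only, because no source used here states which genome build the array was designed on.

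Between these probe sets stand others that carry the same chemokine symbols but neither Gm3893 nor 4933409K07Rik. The rule did not use them. The 10 probe sets that share a further symbol with the 24, all with Ccl27 names among theirs, were all above the floor and ranged from -0.22 to 0.03, with a median of -0.09 over 8 distinct pairs. None was 1.5-fold different in either direction, where 4.28% of all probe sets above the floor were. With that share, a count of 0 among 10 says little by itself. The lowest was 17412979, which carries Ccl27a, Ccl27b, Gm13306 and other copies and read 7.63 and 7.40. Probe set 17434254, with Ccl27b, Gm13306, Gm2506, Ccl27a and LOC100861978, read 8.61 and 8.58. Thus 3 of the symbols on 17424360, Ccl27b, Gm13306 and LOC100861978, recur on probe sets whose values on the 2 arrays differed by at most 0.22, while 17424360 itself differed by -1.17.

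A wider list of 45 gene symbols of this chromosome 4 region was matched to the annotation, and 33 were found. They stand on 59 probe sets outside the 24, among them the 10 just described. Of the 59, 51 were above the floor, and 0 were at least 1.5-fold lower or higher, where 4.28% of all probe sets above the floor were 1.5-fold different. Their median was -0.01 over 40 distinct pairs, and they ranged from -0.25 to 0.31. The other 12 symbols, among them Il11ra1 and Il11ra2, were not analysed here.

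By gene family, the probe sets of Ccl21 copies were all above 0 by a small amount. The 9 of them ranged from 0.15 to 0.31 in 5 distinct pairs, the highest being 17434105 at 7.42 and 7.74. The 13 with Ccl19 symbols ranged from -0.09 to 0.10, and the 11 with Ccl27 symbols above the floor from -0.22 to 0.03. Of the probe sets with 1 symbol, Ccl27a alone (17413054) read 7.0 and 7.03, while a second Ccl27a probe set (17424331) stayed under the floor, at 5.25 and 5.71. The 5 probe sets of Fam205a2 were also below the floor on both arrays, and the one with the largest difference was 17434251 at 6.01 and 5.31.

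Other genes on the list, such as those that flank the duplicated copies in the RefSeq order, also lay close to 0. Their 18 probe sets above the floor ranged from -0.25 to 0.27. Vcp, which encodes an ATPase that extracts proteins for degradation, had 1 bright probe set at 11.30 and 11.38 and a second one at 7.03 and 6.78. Arid3c, a member of a DNA-binding family, was the lowest at 6.96 and 6.70. Phf24 was the highest at 6.12 and 6.39. The difference between the 24 probe sets and these could not be tested with 1 array per group.

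**Figure D3:**
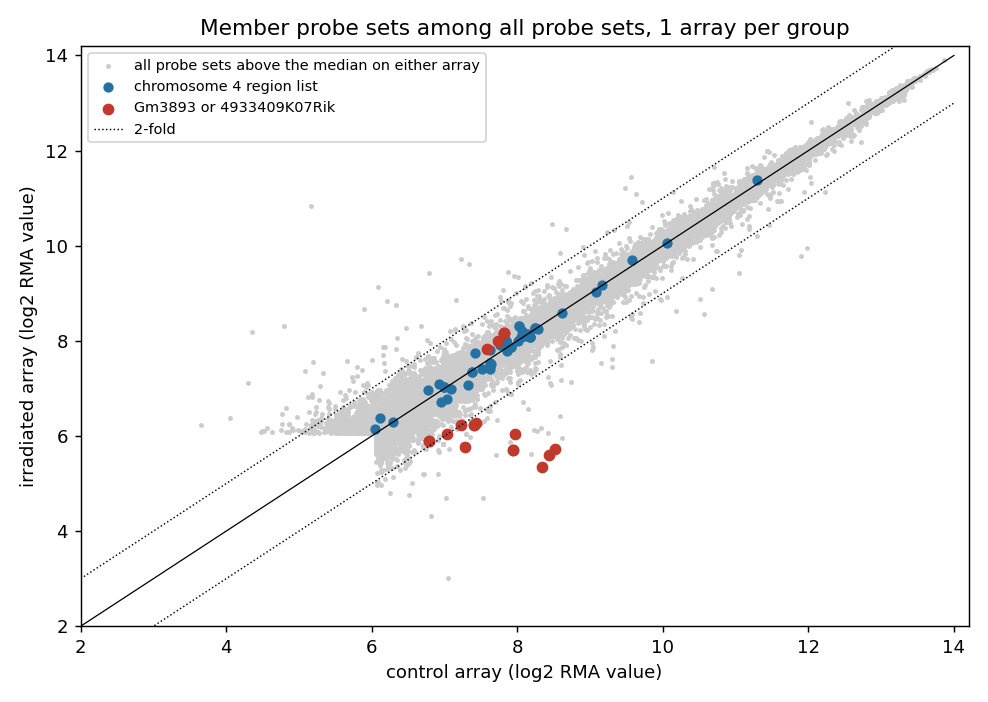
Values of all 21636 probe sets above the floor on the control array (x axis) and the irradiated array (y axis), in log2 RMA units, with the 24 probe sets in red where above the floor, the chromosome 4 region list in blue, a solid line of equality and dotted lines at 2-fold. The red points at control values from 7.23 to 8.52 and irradiated values of 6.26 or less lie on or below the lower dotted line, while the blue points lie between -0.25 and 0.31 from equality.

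Of the 77 probe sets within 5 places of the 24 in identifier order, 60 were above the floor and 2 were at least 2-fold lower. Over all probe sets above the floor the share 2-fold lower was 0.624%, and over the 6343 of them without a symbol 1.01%. Both of these neighbours are among the 16 above the floor that lack a symbol. Both are named here after their values were seen. Probe set 17434158 read 8.61 and 5.95 (-2.66), and 17413061 read 8.22 and 6.12 (-2.10), which was 4.30-fold and above the floor on both arrays. Both differences lie in the range of the probe sets with Gm3893 alone. What they measure is not known here. The 44 named neighbours above the floor ranged from -0.25 to 0.31, and most of them are also on the chromosome 4 list.

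The 5 single-symbol probe sets whose difference was nearest to the median of -1.17 were chosen by a fixed rule over the 2 arrays, which likens a gene only by 1 difference. They were Nr0b2, which encodes a nuclear receptor that represses bile acid synthesis (11.07 and 9.91), the water channel gene Aqp8 (9.57 and 8.47), and the small nucleolar RNA genes Snord73b (8.60 and 7.50), Snora62 (7.51 and 6.28) and Snora33 (12.23 and 11.13). Differences of these 5 ran from -1.23 to -1.10. All 5 were above the floor on both arrays.

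Of 10 hepatocyte genes, 9 were at 11.23 or more on both arrays, and Ass1 was at 7.61 and 7.81. The 10 averaged 12.45 in the control and 12.49 in the irradiated sample, with differences from -0.02 to 0.20. All 5 germ cell genes found were below the floor on both arrays, as were 2 of the 8 T and B cell genes found, and none of the 8 differed by 1.5-fold (-0.30 to 0.23). Over all probe sets above the floor 4.28% differed by 1.5-fold, lower or higher. Bile duct genes moved with the comparison. All 9 found were above 0, 6 of them at least 1.5-fold, 8 were above the floor, and their mean went from 6.50 to 7.55 (their summed log2 level from 58.5 to 67.9), with Cldn7 below the floor on both arrays. The part of the bile duct genes in the Gm3893 values was not tested. In a whole-tissue sample a change in the number of cells of a type and a change in RNA per cell cannot be told apart.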

How the data were processed

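Values came from 1 table with a control and an irradiated array. The deposited log2 values were computed by RMA, and Affymetrix Expression Console 1.3.1 is the software named, per the submitters' processing notes. No header states the log base, which was read from the values, which ran from 1.46 to 13.9. RMA fits the arrays together and draws their distributions alike, so a change in total RNA per cell cannot be seen. Raw scans and detection calls were not analysed here.

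Symbols came from GEO's platform annotation, which can be old. It gave 23521 probe sets 1 symbol, 1814 several and 16010 none. Each probe set was taken singly with all its symbols, and pairs equal in all deposited digits were counted once where stated. Computations used Python 3.11.15 with pandas 2.3.3, numpy 2.4.6 and statsmodels 0.14.6, and were tested on simulated data. The rule for naming took every probe set with either name, those sharing a further symbol, the chemokine genes of the chromosome 4 list, and the 5 single-symbol probe sets nearest to the median. Beside these, examples from the list are named as its extremes. The members and lists were chosen with earlier results of these data known. With 1 array per group no test was made, and the number of arrays limits the precision. Alternatives changed the floor, scaling, log offset, counting, annotation and fold.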

Additional observations from a re-analysis of the deposited data

How the results depend on the processing

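No paired analysis was possible because there was a single array for each condition. Across the alternatives run, 0 probe sets with Gm3893 or 4933409K07Rik were 2-fold higher, and none of those at least 2-fold lower changed sign. Settings of counting, annotation and fold leave each difference as it is, and the offset only shrinks it, so these could not change a sign. The count of 11 lower became 6 under a floor of 7.64, the 75th percentile of all values, 7 with 32 added on the linear scale, 6 at 3-fold, and ranged up to 14 at 1.5-fold. It was 4 when only probe sets with 1 symbol were kept and 1 when only those with a further symbol were, since fewer probe sets enter. The median of -1.17 became -2.23 with the 75th percentile floor, where fewer enter, and -0.91 with the offset of 32, which shrinks differences of low values. Centring, quantile and loess scaling (span 0.3) kept both close to the main values. Medians for the chromosome 4 list stayed between -0.03 and 0.01 and for the co-annotated probe sets between -0.10 and -0.03, with 0 at 2-fold. Over all probe sets, 135 lower and 127 higher became 241 and 366 with no floor, 61 and 47 with the 75th percentile floor, 59 and 53 with the offset, 400 and 527 at 1.5-fold, 33 and 38 at 3-fold, and 94 and 65 with low values set to the floor. These counts over all probe sets, and those of neighbours, were rerun as an addition made after seeing the data. A weak probe set cannot be told from background here.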
